A study of Mus musculus with 6 samples.

Results

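Transcripts of the collagen genes were measured in quadriceps muscle of mice with and without the estrogen receptor ERα in muscle. The set holds every protein-coding gene whose symbol is Col, a number, a and a number. By this rule 44 of the 48795 genes in the count table were collagen genes. They were sorted into 11 fibrillar genes, 9 of the basement membrane and its zone, 8 FACIT genes (fibril-associated collagens with interrupted triple helices), 2 genes of the myotendinous or neuromuscular junction, and 14 others.

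Both groups were male C57BL/6 mice aged 20 weeks, and each group had 3 libraries. MERKO mice carry a muscle-specific loss of ERα (gene Esr1), and control mice were wild type. The Cre line behind the deletion, and whether each library came from 1 animal, are not stated in the labels, so the p-values measure only the spread between these libraries. Whole muscle also holds fibroblasts, vessels, nerve, fat and pieces of tendon, and in such bulk RNA a smaller number of cells of a type cannot be told apart from less RNA per cell.

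Collagens are the main proteins of the extracellular matrix. Each molecule is a triple helix of chains with glycine repeated at regular spacing, and many collagens need chains from different genes. In muscle, collagens I and III form the fibrils of the connective tissue around fibres and bundles, collagen V sits within those fibrils, collagen IV builds the sheet that surrounds each fibre and capillary, and collagen VI links that sheet to the matrix. Collagen XXII lies at the junction of muscle and tendon, where force leaves the fibre. Fibroblasts make most of the fibrillar chains, while muscle fibres, endothelial cells and Schwann cells contribute to the basement membrane.

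The libraries held between 14935532 and 44282448 counts, and between 0.103% and 0.184% of those counts came from collagen genes. An rRNA gene model took between 0.0434% and 32.4% of counts. Esr1 stood at 6.75, 9.43 and 7.46 CPM (counts after scaling all libraries to equal size) in the MERKO libraries and at 25.1, 34.1 and 31.1 CPM in the control libraries, so the targeted transcript was low in every MERKO library (log2 fold change -1.95, SE 0.16, adjusted p = 0.0262, edgeR quasi-likelihood test). It missed the threshold when MERKO 1 (0.102), MERKO 2 (0.0576), control 2 (0.109) or control 3 (0.0632) was left out. Below, the 3 values of a group are always in the order of libraries 1 to 3. The tissue label was met by 9 markers of muscle fibres, whose summed level was at least 172928 CPM in every library. MERKO 1 and control 1 stood apart in slow-fibre transcripts: Tnnt1, the slow troponin T, had 39.1 and 39.0 CPM there and 0.962 to 2.74 CPM in the other 4 libraries, and slow myosin Myh7 had 160 and 185 CPM there and at most 8.07 CPM elsewhere. Results without this pair of libraries are given for that reason, and the part of fibre type in the collagen values was not tested. Tendon markers also differed widely between libraries, and their values are given beside the collagen genes that were high in the same libraries.

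The sequences just before 4 start sites are shown because these genes carry the range of the results: Col24a1 had the lowest p of the set, Col11a1 the highest fold change, Col15a1 did not overlap between groups, and Col3a1 was the most abundant and differed little. Each line gives the 250 bases upstream of the start, 5′ to 3′, from RefSeq on GRCm38.p6, which overlap no exon of the GENCODE M21 annotation. Capitals mark matches to the motifs searched.
Col24a1 (chr3:145292222-145292471, plus strand): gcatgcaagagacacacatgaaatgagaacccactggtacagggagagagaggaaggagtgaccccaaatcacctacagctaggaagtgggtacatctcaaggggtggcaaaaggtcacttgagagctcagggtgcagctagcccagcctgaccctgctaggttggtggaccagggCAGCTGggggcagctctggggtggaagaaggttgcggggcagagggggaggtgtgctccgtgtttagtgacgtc
Col11a1 (chr3:114030290-114030539, plus strand): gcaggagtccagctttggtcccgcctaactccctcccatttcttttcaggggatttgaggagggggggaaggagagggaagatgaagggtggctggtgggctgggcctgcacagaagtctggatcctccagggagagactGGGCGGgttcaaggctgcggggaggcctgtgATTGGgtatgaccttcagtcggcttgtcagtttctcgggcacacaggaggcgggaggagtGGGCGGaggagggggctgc
Col15a1 (chr4:47207762-47208011, plus strand): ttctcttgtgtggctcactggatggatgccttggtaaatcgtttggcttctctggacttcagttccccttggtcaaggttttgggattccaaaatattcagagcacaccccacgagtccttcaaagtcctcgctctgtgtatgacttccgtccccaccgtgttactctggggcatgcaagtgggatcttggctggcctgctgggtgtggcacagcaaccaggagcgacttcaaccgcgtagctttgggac
Col3a1 (chr1:45311288-45311537, plus strand): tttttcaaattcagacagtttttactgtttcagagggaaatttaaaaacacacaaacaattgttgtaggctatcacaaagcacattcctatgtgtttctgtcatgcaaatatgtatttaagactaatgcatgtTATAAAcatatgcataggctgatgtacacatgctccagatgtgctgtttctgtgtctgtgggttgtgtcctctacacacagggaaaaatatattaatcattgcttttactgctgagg
The capitals are an E-box CAGCTG in Col24a1, 2 GC boxes GGGCGG and a CCAAT box (read as ATTGG, on the reverse strand) in Col11a1, and the letters TATAAA in Col3a1. The window of Col15a1 held none of the 6 motifs.

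RefSeq promoter windows of 300 bases (250 before and 50 after the start) were matched for 35 of the 44 genes, which gave 38 windows. Both strands were searched, and no printed match overlapped another. The palindromic estrogen response element, searched as GGTCA and TGACC with 3 bases between them, occurred in 0 of the 38 collagen windows and in 0.07% of all 32841 windows. GC boxes occurred in 60.5% of collagen windows against 35.7% of all windows, CCAAT in 34.2% against 37.4%, TATAAA in 13.2% against 13.6%, CAGCTG in 18.4% against 16.3%, and the AP-1 site TGANTCA in 2.63% against 7.81%. These are counts of letters in short windows and do not show binding.

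Levels of different collagen genes can be compared only per length, here in CPM per kilobase of the annotated main coding transcript. In control muscle Col3a1 was highest at 56.2 ± 11.7 CPM per kilobase (SD, n = 3). Col1a2 followed at 32.2 ± 7.93, Col4a1 at 23.1 ± 1.07 and Col6a1 at 17.1 ± 1.96 CPM per kilobase. The order depended on the length used. Per kilobase of all annotated exons, Col3a1 stayed highest at 31.9, followed by Col4a1 at 20.5, Col6a1 at 16.0 and Col1a2 at 13.9 CPM. On that length Col4a2, Col1a1, Col6a3 and Col6a2 stood at 11.1, 9.94, 6.46 and 5.52 CPM. Per kilobase of the main coding transcript, Col6a2, Col4a2 and Col1a1 lay next at 11.6 ± 1.497, 11.4 ± 0.519 and 10.999 ± 2.98 CPM. These neighbours did not differ beyond their spread. Col6a3 stood at 8.58 ± 1.42, and the collagen V chains Col5a2, Col5a1 and Col5a3 at 6.35, 4.86 and 3.33 CPM per kilobase. These 11 genes were the most abundant in control muscle, and 10 of them were among the 11 most abundant in MERKO muscle, where Col15a1 took the place of Col5a3. These are the chains of collagens I, III, IV, V and VI.

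**Figure D1:**
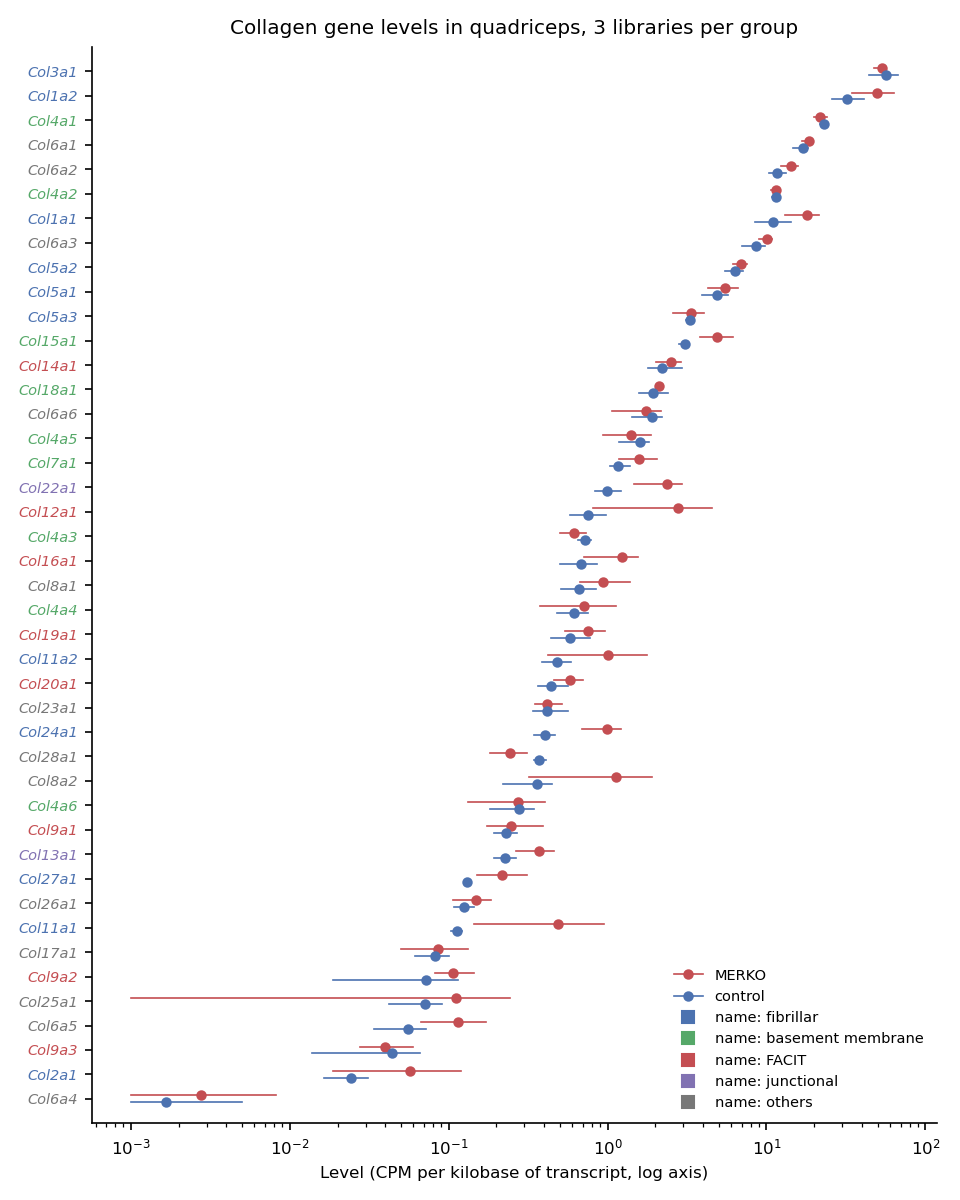
Level of 43 collagen genes in CPM per kilobase of transcript (log axis), with points for group means and lines for the range of 3 libraries; names are coloured by class, and libraries at 0 are drawn at the left end. Col3a1 is highest at 56.2 CPM per kilobase in control, and the MERKO ranges of Col24a1, Col22a1 and Col15a1 lie to the right of the control ranges.

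Of the 44 genes, 37 passed the filter on low counts and were tested. The other 7, Col2a1, Col6a4, Col9a2, Col9a3, Col10a1, Col25a1 and Col26a1, had between 0 and 21 counts per library. Col2a1 and Col10a1 are cartilage collagens. Col10a1 had a single count in MERKO 3 and 0 counts in the other 5 libraries, where a count of 0 allows up to 3 counts. The filter was met by all 3 libraries of both groups for 35 of the 37 tested genes, the exceptions being Col6a5 and Col17a1.

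No collagen gene passed the threshold of 0.05 on the adjusted p in the edgeR test, where 0.00734% of all 13628 genes did, that is Esr1 alone. At an unadjusted p under 0.05 there were 11 of 37 collagen genes, where 7.04% of all genes were. All 11 were higher in MERKO, against 3.71% of all genes in that direction and 3.34% in the other. This count was 7 without control 1, 7 without MERKO 1 and control 1 together, and between 8 and 12 without any other single library. By sign alone 29 of 37 were higher and 8 lower in MERKO, where 52.1% of all genes were higher. Without a composition factor in the scaling the split was 24 higher and 13 lower, and the median of all genes moved by -0.114 on the log2 scale. Measured from the median of all genes, 28 collagen genes lay above and 9 below with the factor, and 29 and 8 without it. The median log2 fold change was 0.23 over the 37 genes and 0.01 over all genes.

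Groups that did not overlap were also counted. In 6 of 37 genes all MERKO libraries lay above all control libraries, against 6.17% of all genes tested. These were Col11a1, Col24a1, Col27a1, Col15a1, Col22a1 and Col13a1. Col28a1 was the 1 gene with all MERKO libraries below, against 7.1% of all genes. Restricted to genes with a mean of at least 1 CPM over all 6 libraries, a filter blind to the groups, the counts were 5 and 1 of 33, against 5.84% and 7.61%. DESeq2 on the same genes called 2 collagen genes, Col22a1 (adjusted p = 0.00253) and Col24a1 (0.00425), where it called 0.205% of all genes. Limma-voom called none of them (0.00734% of all genes). The edgeR test called 3 without a composition factor (0.682% of all genes), 6 without the filter (0.54%) and 1 without MERKO 3 (0.0784%).

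**Figure D2:**
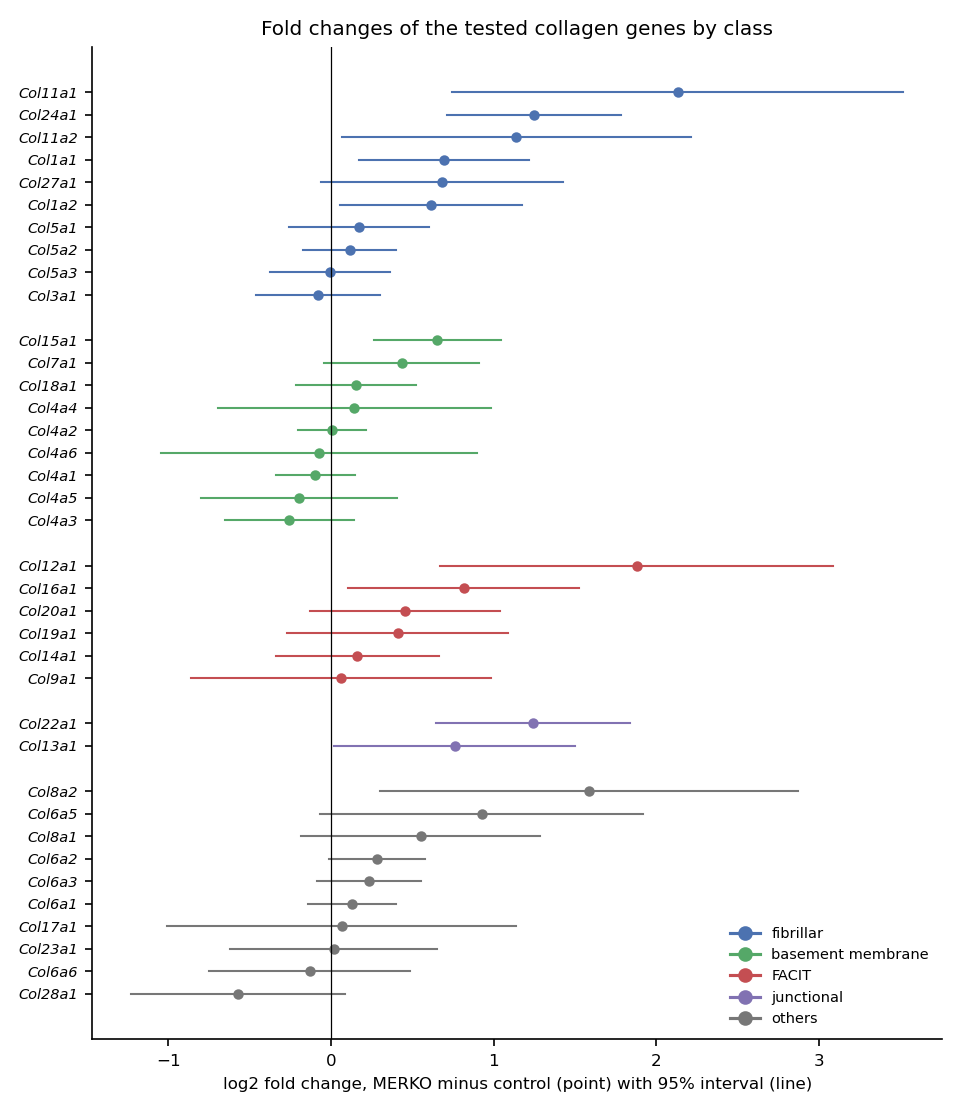
Log2 fold changes of the 37 tested collagen genes (MERKO minus control, points) with 95% confidence intervals (lines, not adjusted for the number of genes), ordered within class. Col11a1 is highest at 2.13, the collagen IV genes lie around 0, and all 6 FACIT genes lie right of 0, of which Col9a1 (0.06) and Col14a1 (0.16) are below 0 in some other settings (to -0.35 and -0.10).

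The fibrillar genes were examined first, beginning with the chains of collagen I, the main fibril of tendon, skin and the coarse connective tissue of muscle. Col1a1 (chromosome 11, 94936224 to 94953042, plus strand, GRCm38) had 113, 127 and 78.0 CPM in the MERKO libraries against 50.5, 60.4 and 84.8 CPM in the control libraries. Its log2 fold change was 0.70 (SE 0.23, adjusted p = 0.671, edgeR). MERKO 1 and 2 lay above every control library, and MERKO 3 lay below control 3. Col1a2, which encodes the partner chain, had 340, 267 and 184 CPM in the MERKO libraries against 137.5, 160 and 220 CPM in the control libraries, with a log2 fold change of 0.61 (SE 0.24, adjusted p = 0.683). Here too MERKO 3 lay inside the control range. Without MERKO 1 the log2 fold change of Col1a2 was 0.39.

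Col3a1, whose product forms the finer fibrils of compliant connective tissue, had overlapping groups. It had 263, 312 and 312 CPM in the MERKO libraries against 245, 317 and 376 CPM in the control libraries, and every MERKO library lay inside the control range. Its log2 fold change was -0.08 with a 95% interval of -0.46 to 0.30. The ratio of Col3a1 to Col1a2, per kilobase, was 0.744, 1.13 and 1.63 in the MERKO libraries against 1.71, 1.91 and 1.64 in the control libraries. The groups did not overlap in this ratio, although MERKO 3 lay just below control 3. Several ratios were compared here and below, none was tested, and no share over other gene pairs was counted.

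Collagen V is built into collagen I fibrils and limits their width. Col5a2 had 49.9, 45.8 and 41.1 CPM in the MERKO libraries against 36.3, 42.7 and 47.3 CPM in the control libraries, and the groups overlapped (log2 fold change 0.11, 95% interval -0.17 to 0.40). Col5a1 and Col5a3 had log2 fold changes of 0.17 and -0.01, with intervals from -0.26 to 0.60 and from -0.38 to 0.36. The chains of the heterotrimer, Col5a2 and Col5a1, had a per-kilobase ratio of 1.30 ± 0.397 in MERKO and 1.32 ± 0.0772 in control. These intervals leave room for moderate differences, and none was detected.

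Collagen XI is a minor fibrillar collagen of cartilage and tendon that helps start fibrils. Col11a1 (chromosome 3, 114030540 to 114220718, plus strand) had 7.24, 2.95 and 1.11 CPM in the MERKO libraries against 0.924, 0.789 and 0.901 CPM in the control libraries. This was the highest fold change among the 37 genes, at 2.13 on the log2 scale (SE 0.60, adjusted p = 0.654, edgeR; 0.0506 in DESeq2). MERKO 1 was the highest library, and without it the log2 fold change was 1.14. Col11a2, named here after its values were seen because its product joins that of Col11a1, had 9.49, 4.46 and 2.26 CPM in the MERKO libraries against 2.52, 3.16 and 2.08 CPM in the control libraries, and its log2 fold change of 1.14 was 0.38 without MERKO 1. The per-kilobase ratio of Col11a1 to Col11a2 was 0.537, 0.465 and 0.344 in the MERKO libraries against 0.258, 0.176 and 0.305 in the control libraries.

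Col24a1 and Col27a1 belong to the remaining fibrillar branch, whose products are known mainly from bone and cartilage. Col24a1 (ENSMUSG00000028197.4, chromosome 3, 145292472 to 145552011, plus strand) had 7.57, 8.67 and 4.91 CPM in the MERKO libraries against 2.86, 2.45 and 3.35 CPM in the control libraries. All MERKO libraries were above all control libraries, and MERKO 2 rather than MERKO 1 was highest. Its log2 fold change was 1.25 (SE 0.23, 95% interval 0.71 to 1.79, adjusted p = 0.631, edgeR), which put it at rank 10 of all genes by p. Leaving out any single library kept the log2 fold change between 1.10 and 1.46. Col27a1 had much lower counts, with 1.43, 2.36 and 1.15 CPM in the MERKO libraries against 0.966, 0.947 and 1.05 CPM in the control libraries (log2 fold change 0.68, SE 0.32, and 0.39 without MERKO 2).

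The basement membrane genes as a class had a median log2 fold change of 0.00 over 9 tested genes. Col4a1 and Col4a2 encode the chains found in nearly every basement membrane, and their genes lie head to head on chromosome 8 with start sites 21 bases apart. Col4a1 had 159, 132 and 138 CPM in the MERKO libraries against 155, 158 and 145 CPM in the control libraries (log2 fold change -0.10, 95% interval -0.34 to 0.15). Col4a2 had 73.5, 69.1 and 78.6 CPM in the MERKO libraries against 74.0, 76.7 and 70.0 CPM in the control libraries (log2 fold change 0.00, 95% interval -0.21 to 0.21). Both intervals lie within 1.5-fold in either direction. Their per-kilobase ratio, Col4a2 to Col4a1, was 0.489, 0.497 and 0.497 in control 1 to 3 and spread more widely in MERKO, at 0.475, 0.537 and 0.585.

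The other collagen IV chains replace Col4a1 and Col4a2 in specialised membranes such as those of kidney and synapse. Col4a3 had 4.29, 6.23 and 5.25 CPM in the MERKO libraries against 5.55, 6.23 and 6.73 CPM in the control libraries (log2 fold change -0.26, SE 0.17). Col4a4, Col4a5 and Col4a6 had log2 fold changes of 0.14, -0.20 and -0.08, and in each of them MERKO 1 was the lowest and MERKO 2 the highest of the 6 libraries. Within these pairs, Col4a3 and Col4a4 start 72 bases apart on chromosome 1, and Col4a5 and Col4a6 start 1309 bases apart on the X chromosome.

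Next to the collagen IV network lie the collagens of the basement membrane zone. Col15a1 encodes a multiplexin that bridges the basement membrane of muscle fibres and capillaries to the collagen fibrils. Col15a1 (chromosome 4, 47208161 to 47313167, plus strand) had 19.6, 31.7 and 24.2 CPM in the MERKO libraries against 16.8, 14.5 and 16.3 CPM in the control libraries. The groups did not overlap, and MERKO 1 was here the lowest of the MERKO libraries. Its log2 fold change was 0.65 (SE 0.17, adjusted p = 0.654, edgeR), and without any single library it lay between 0.47 and 0.81.

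Col18a1, the related multiplexin whose fragment is endostatin, had 10.6, 9.68 and 10.01 CPM in the MERKO libraries against 7.60, 11.4 and 8.57 CPM in the control libraries (log2 fold change 0.15, SE 0.16). Every MERKO library lay inside the control range. Col7a1, the chain of the anchoring fibrils, had 10.9, 18.9 and 14.0 CPM in the MERKO libraries against 9.58, 12.8 and 9.91 CPM in the control libraries, with a log2 fold change of 0.43 (SE 0.21) that was 0.22 without MERKO 2. Only MERKO 2 and 3 lay above every control library. Of 8 skin epithelium markers, the cells in which Col7a1 is best known, Krt1, Krt5, Krt14, Krt15 and Dsg3 were at 0 in all libraries, and the summed level of the list was 3.68 to 4.43 CPM in MERKO and 4.24 to 6.08 CPM in control. Trp63 (log2 fold change -0.45) and Krt10 (0.54) had the lowest p of that list.

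FACIT collagens coat the surface of fibrils and do not form fibrils themselves. By sign all 6 tested FACIT genes were higher in MERKO, but 2 signs depended on the setting. Col9a1 (0.06) stood at -0.09 without a composition factor, at -0.03 with limma-voom and between -0.35 (without MERKO 2) and 0.29 (without MERKO 1) when a library was left out, and Col14a1 stood at -0.10 without MERKO 1 and control 1. Their median log2 fold change was 0.43, and 2 of them had an unadjusted p under 0.05. Col12a1, a FACIT of tendon, ligament and the connective tissue of muscle, had 52.3, 34.4 and 9.38 CPM in the MERKO libraries against 11.3, 6.71 and 8.01 CPM in the control libraries. Its log2 fold change was 1.88 (SE 0.53, adjusted p = 0.654, edgeR), and MERKO 3 lay inside the control range. Without MERKO 3 the log2 fold change was 2.32 with an adjusted p of 0.0483, and without MERKO 1 it was 1.30 with an adjusted p of 0.779. The adjusted p of Col12a1 ranged from 1.64e-05 to 0.999 over the alternatives.

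Col14a1, the FACIT most alike to Col12a1 in its role on collagen I fibrils, had overlapping groups, with 16.5, 14.6 and 11.4 CPM in the MERKO libraries against 10.7, 10.2 and 16.7 CPM in the control libraries (log2 fold change 0.16, SE 0.22). The per-kilobase ratio of Col12a1 to Col14a1 was 1.56 and 1.16 in MERKO 1 and 2, against 0.406 in MERKO 3 and between 0.236 and 0.520 in control. Col16a1, which is found in smooth muscle and connective tissue, had 8.09, 7.41 and 3.71 CPM in the MERKO libraries against 3.53, 2.60 and 4.45 CPM in the control libraries (log2 fold change 0.82, SE 0.31). MERKO 3 again lay with the control libraries.

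Col19a1 and Col20a1 were low in all libraries. Col19a1, a collagen of basement membrane zones in muscle and nerve, had 2.31, 3.20 and 4.14 CPM in the MERKO libraries against 2.27, 3.31 and 1.87 CPM in the control libraries (log2 fold change 0.41, SE 0.30), and its value lay between 0.17 (without MERKO 3) and 0.64 (without control 2) when a library was left out. Col20a1 had 3.50, 2.95 and 2.31 CPM in the MERKO libraries against 1.93, 2.84 and 1.84 CPM in the control libraries (log2 fold change 0.45, SE 0.26, and 0.28 without MERKO 1). The groups overlapped in both genes.

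The junctional genes both had groups that did not overlap. Col22a1 encodes the collagen that fastens the muscle fibre end to the tendon and is made by the muscle fibre at the myotendinous junction. Col22a1 (ENSMUSG00000079022.9, chromosome 15, 71795795 to 72034227, minus strand) had 25.8, 23.8 and 13.0 CPM in the MERKO libraries against 10.8, 7.34 and 8.27 CPM in the control libraries. MERKO 1 and 2 stood more than 2 times above the highest control library, and MERKO 3 was nearer to control 1. The log2 fold change was 1.24 (SE 0.26, 95% interval 0.64 to 1.84, adjusted p = 0.631, edgeR), and it lay between 1.04 and 1.497 without any single library. The adjusted p ranged from 0.000782 to 0.999 over the alternatives.

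Col13a1 encodes a transmembrane collagen that helps mature the neuromuscular junction. It had 1.46, 0.842 and 1.20 CPM in the MERKO libraries against 0.840, 0.710 and 0.607 CPM in the control libraries, from 9 to 48 counts per library. MERKO 2 (10 counts) and control 1 (20 counts) lay next to each other at nearly the same CPM. The log2 fold change was 0.76 (SE 0.32, adjusted p = 0.694, edgeR).

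**Figure D3:**
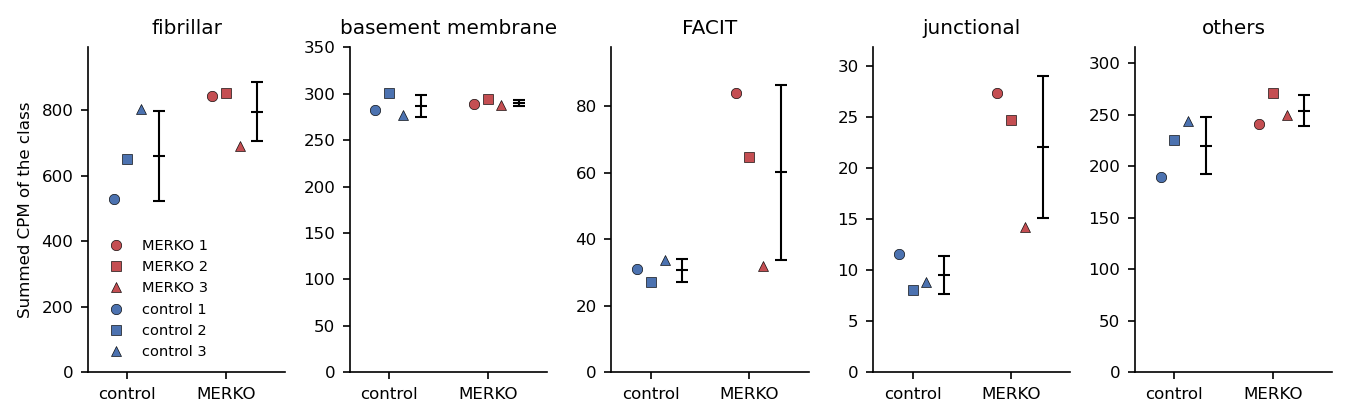
Summed CPM of each collagen class in every library (points, shaped by replicate number) with the mean ± SD of 3 libraries beside them. The basement membrane sums lie between 277 and 300.2 CPM in all 6 libraries. MERKO 1 and 2 stand above every control library in the fibrillar, FACIT and junctional classes. MERKO 3 does so in the junctional class, and MERKO 2 and 3 do so among the others.

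Summed over each class, the basement membrane genes had 290 ± 3.51 CPM in MERKO against 287 ± 11.9 CPM in control (SD, n = 3). The FACIT sum was 83.8, 64.7 and 32.0 CPM in the MERKO libraries against 31.0, 27.1 and 33.9 CPM in the control libraries, so that MERKO 3 lay inside the control range. The junctional sum was 27.3, 24.7 and 14.2 CPM against 11.6, 8.05 and 8.88 CPM, with no overlap, and consists mostly of Col22a1. The fibrillar sum, led by collagens I and III, was 796 ± 90.0 CPM in MERKO and 661 ± 138 CPM in control, with overlapping groups. All collagen genes together had 1422 ± 127 CPM in MERKO and 1208 ± 162 CPM in control, which overlapped as well.

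Among the other collagens, collagen VI is the best known in muscle, where it forms beaded filaments in the matrix next to the basement membrane. Col6a1 had 80.4, 80.6 and 68.3 CPM in the MERKO libraries against 60.7, 74.2 and 75.0 CPM in the control libraries (log2 fold change 0.13, 95% interval -0.14 to 0.40). Col6a2 had 48.8, 62.0 and 57.2 CPM in the MERKO libraries against 41.0, 44.4 and 52.5 CPM in the control libraries (0.28, -0.01 to 0.58). Col6a3 had 80.9, 94.5 and 97.3 CPM in the MERKO libraries against 63.3, 80.1 and 88.3 CPM in the control libraries (0.23, -0.09 to 0.55). The groups overlapped in all 3, and each had a higher mean in MERKO. The per-kilobase ratio of Col6a2 to Col6a1 was 0.766 ± 0.123 in MERKO and 0.683 ± 0.0555 in control, and that of Col6a3 to Col6a1 was 0.547 ± 0.0956 and 0.501 ± 0.0318.

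The later collagen VI chains were less abundant. Col6a6 had 9.43, 19.1 and 17.6 CPM in the MERKO libraries against 12.6, 18.1 and 19.2 CPM in the control libraries (log2 fold change -0.13, SE 0.27). Col6a5 had 0.973, 1.599 and 0.626 CPM in the MERKO libraries against 0.672, 0.316 and 0.551 CPM in the control libraries (0.93, SE 0.43, and 0.61 without MERKO 2), from no more than 32 counts in a library. MERKO 3 overlapped with control in Col6a5, and all MERKO libraries but MERKO 1 lay inside the control range in Col6a6.

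Collagen VIII forms open networks in vessel walls and in the membrane of the corneal endothelium. Col8a2 had 8.24, 5.05 and 1.40 CPM in the MERKO libraries against 1.81, 0.947 and 1.95 CPM in the control libraries. The log2 fold change was 1.59 (SE 0.56, adjusted p = 0.680, edgeR), with MERKO 3 inside the control range, and it was 0.91 without MERKO 1. Its partner Col8a1 had a smaller difference with overlapping groups (log2 fold change 0.55, SE 0.32, and 0.11 without MERKO 1). Of the other tested genes, Col17a1 (log2 fold change 0.06) and Col23a1 (0.02), both transmembrane collagens, had overlapping groups. Col28a1, a collagen of peripheral nerve, had 1.31, 1.01 and 0.770 CPM in the MERKO libraries against 1.72, 1.499 and 1.45 CPM in the control libraries (-0.57, SE 0.29), and was the only tested collagen gene with a lower value in every MERKO library than in any control library. All 9 tested Schwann cell and nerve markers were, in contrast, higher in MERKO by sign, where 52.1% of all genes tested were. Their summed level was 39.1 to 61.6 CPM in MERKO and 29.1 to 37.6 CPM in control. Ngfr (log2 fold change 1.38) and Pmp22 (0.42) had the lowest p of that list, and their part in the collagen values was not tested.

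**Figure D4:**
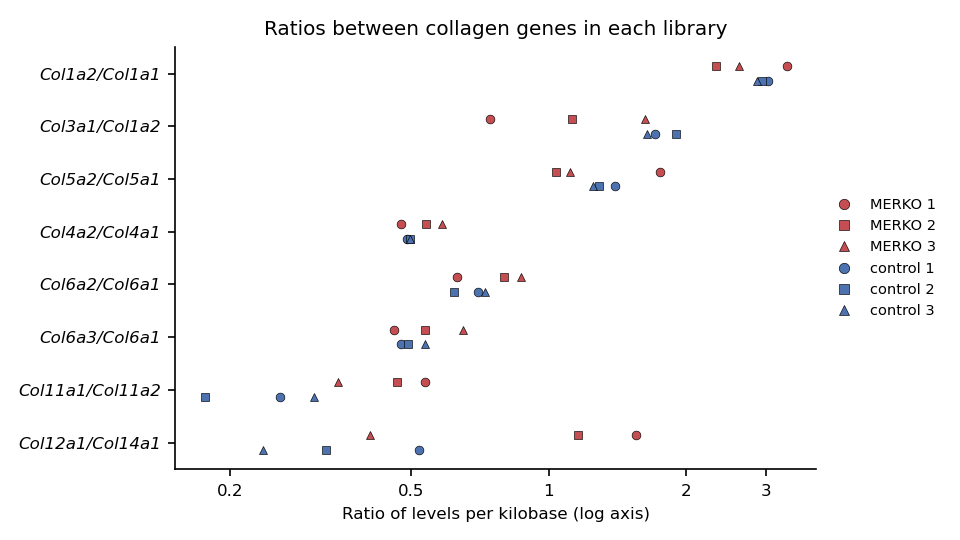
Ratios between collagen genes per kilobase of transcript (log axis) in each of the 6 libraries. The ratios were not tested. The control libraries lie close together for Col4a2/Col4a1 (0.489 to 0.497), while Col3a1/Col1a2 is lower in every MERKO library (0.744, 1.13 and 1.63) than in any control library (1.64 or more).

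Across libraries, MERKO 3 stood nearer to control than the other MERKO libraries. Of the 37 tested genes, 18 in MERKO 1 and 24 in MERKO 2 lay above all 3 control libraries, where 29.6% and 29.1% of all genes did. In MERKO 3 the count was 12, against 23.4% of all genes. Below all 3 control libraries were 9, 3 and 4 collagen genes in MERKO 1 to 3, against 29.8%, 27.2% and 24.1% of all genes. More than 2 times above the highest control library were 6 genes in MERKO 1, 7 in MERKO 2 and 0 in MERKO 3. The share over all genes was not counted for this criterion, so these counts have no background.

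Markers of tendon cells were high in MERKO 1 and 2 as well. Their summed level over 11 genes was 447, 232.5 and 92.4 CPM in the MERKO libraries, against 93.1, 33.9 and 77.6 CPM in the control libraries. The sum in MERKO 3 lay just inside the control range, while MERKO 3 was above every control library for 4 of the 11 markers, Kera, Comp, Prg4 and Chad. Kera had 4.09 CPM in MERKO 3 against at most 2.27 CPM in control. Among the collagen genes, MERKO 3 lay inside the control range for Col12a1, Col8a2, Col1a1, Col1a2 and Col16a1, and above every control library for Col22a1, Col24a1, Col15a1, Col11a1, Col27a1 and Col13a1, at 1.48, 1.70, 1.52, 1.27, 1.17 and 1.67 times the control mean. By sign 10 of the 11 markers were higher in MERKO. The median of the list was 2.20 on the log2 scale, and 9 members had an unadjusted p under 0.05. Among all genes tested, 52.1% were higher by sign and 7.04% had such a p. None passed the adjusted threshold in the edgeR test. Kera, the proteoglycan keratocan, stood at 14.7 ± 10.8 CPM in MERKO against 1.69 ± 0.625 CPM in control (log2 fold change 3.08), and Comp, a cartilage and tendon matrix protein, at 15.7 ± 15.2 and 1.85 ± 0.955 CPM (3.07). Scx, the transcription factor of tendon progenitors, was the exception at -0.01. The part of tendon RNA in the collagen values was not tested.

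**Figure D5:**
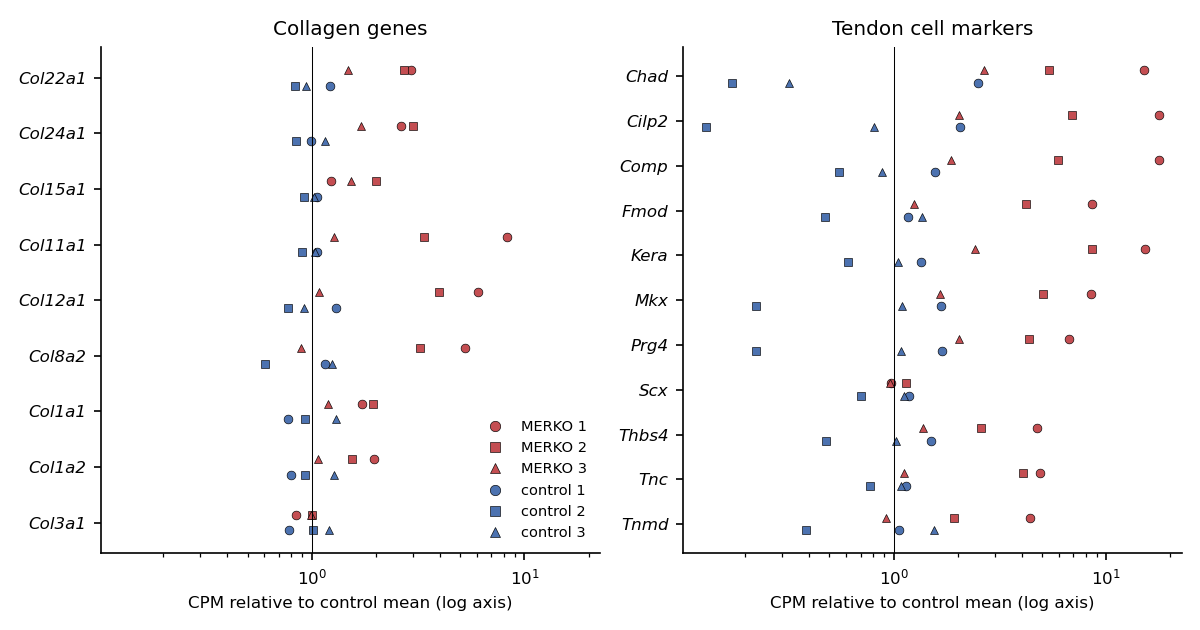
CPM relative to the control mean (log axis) in each library for 9 collagen genes (left) and 11 tendon cell markers (right). MERKO 1 stands at 8.30 times the control mean in Col11a1 and 6.03 times in Col12a1, while MERKO 3 lies at 1.48 times in Col22a1 and 1.08 times in Col12a1.

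The markers of other cells that could carry collagen transcripts were counted as well. By sign 52.1% of all genes tested were higher in MERKO. Of 12 tested fibroblast markers, 4 were higher and 8 lower by sign, with a median of -0.09, and the summed levels of the list overlapped (1235 to 1841 CPM in MERKO, 1356 to 1906 CPM in control). Dpt (-0.54) and Thy1 (0.57) had the lowest p. Cartilage and bone markers were at or near 0, with Ibsp, Bglap, Bglap2 and Matn1 at 0 in all libraries and a summed level of 0.722 to 1.94 CPM in MERKO and 0.473 to 0.714 CPM in control, and Sox9 was the 1 member tested (0.55). Endothelial markers (7 higher, 2 lower, with Kdr at 0.48 and Tek at -0.22), markers of smooth muscle and pericytes (6 higher, 2 lower, with Notch3 at 0.30 and Cnn1 at 0.88) and macrophage markers (4 higher, 3 lower, with Cd163 at -0.51 and Itgam at 0.93) had overlapping summed levels. All 8 adipocyte markers were lower by sign, with Lep (-3.01) and Retn (-2.50) at the lowest p. Their summed level was 322 to 865 CPM in MERKO and 1021 to 1583 CPM in control. Most of that sum was Car3, at 284, 285 and 799 CPM in the MERKO libraries against 952, 1236.8 and 1263.5 CPM in the control libraries. Car3 varied far less between the control libraries than Adipoq, which had 4.83, 36.7 and 16.9 CPM there. The sum is therefore not a measure of fat cells alone. The groups overlapped in Adipoq, Cidec and Lipe. Of the 9 muscle fibre markers 5 were higher and 4 lower, with Myh1 (0.86) and Ttn (0.51) at the lowest p. No gene of these lists passed the adjusted threshold in the edgeR test, and their part in the collagen values was not tested.

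The genes that fold, cut, link and remove collagen were examined as companions of the chains. Of 20 tested genes for folding, hydroxylation and secretion, 16 were higher and 4 lower by sign (median 0.12), and 2 had an unadjusted p under 0.05. Over all genes tested, 52.1% were higher and 7.04% had such a p, which is the background for the lists above and below as well. The median of 0.12 is close to the shift of 0.114 between the scalings with and without a composition factor. P3h2, a prolyl 3-hydroxylase, stood at 2.89 ± 1.14 CPM in MERKO against 1.44 ± 0.327 CPM in control (1.03, SE 0.35). Fkbp10, a chaperone needed for cross-link formation, stood at 4.11 ± 0.727 and 2.74 ± 0.586 CPM (0.56, SE 0.22). Of 13 genes for propeptide cleavage and cross-linking, 8 were higher and 5 lower (median 0.06), and the lowest p belonged to Adamts3, a propeptide protease (1.01, SE 0.40), and Tll1, a protease related to BMP1 (-0.53, SE 0.34).

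Breakdown genes encode proteases, their inhibitors and an uptake receptor. Of 12 tested genes for collagen breakdown and its inhibitors, 8 were higher and 4 lower (median 0.11, close to the shift of 0.114 between the scalings). The summed level was 319 to 356 CPM in MERKO and 307 to 317 CPM in control. Inhibitors made up most of it. Timp3, Timp2 and Timp4 stood at 141, 53.0 and 41.7 CPM in MERKO and 136, 49.1 and 37.2 CPM in control. Mmp9, a gelatinase, had 1.73, 1.94 and 1.49 CPM in the MERKO libraries against 2.77, 3.95 and 4.15 CPM in the control libraries (log2 fold change -1.09, SE 0.23). Mrc2, the receptor that takes up collagen fragments, had 10.6, 10.4 and 10.1 CPM in the MERKO libraries against 7.10, 7.58 and 8.09 CPM in the control libraries (0.44, SE 0.11). The groups did not overlap in either gene, and neither passed the adjusted threshold (adjusted p = 0.631 and 0.654, edgeR). Both were named for the lowest p of the list. Without overlap there were 1 gene above and 1 below among the 12 tested, against 6.17% and 7.1% of all genes.

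All 8 tested collagen receptor genes were higher by sign, the smallest at 0.02, which is less than the shift of 0.114 between the scalings. Their median was 0.24, and their summed level was 234 to 248 CPM in MERKO and 209 to 220 CPM in control. Lair1, an inhibitory collagen receptor of leukocytes, stood at 1.89 ± 0.992 CPM in MERKO against 0.740 ± 0.0425 CPM in control (1.37, SE 0.39), and Itga2, a collagen-binding integrin chain, at 1.31 ± 0.493 and 0.551 ± 0.13 CPM (1.22, SE 0.39). Genes of TGF-beta signalling, a main inducer of collagen synthesis, were split with 9 higher and 8 lower (median 0.10). Ltbp1, which holds latent TGF-beta in the matrix, stood at 20.6 ± 0.840 and 16.2 ± 0.0227 CPM (0.35, SE 0.09), and Ltbp4 at 10.8 ± 2.76 and 7.68 ± 0.521 CPM (0.51, SE 0.19). No gene of these 5 lists passed the adjusted threshold, and the lowest adjusted p was 0.631 (edgeR).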

How the data were processed

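RNA of quadriceps from 3 MERKO and 3 control libraries was sequenced after Trizol isolation and TruSeq library preparation, per the labels' protocols. The authors deposited raw read counts per gene and library. Tools in the submitters' processing notes are STAR 2.5.2b, DESeq and HTSeq 0.9.1, and builds are mm10 and GRCm38. No label states the annotation release, the strand setting or how reads with several placements were counted, so overlapping genes such as the 5′ ends of Col4a1 and Col4a2 may share reads. Symbols were matched for all but 446 of 48795 identifiers, and positions, biotypes and transcript lengths come from GENCODE M21 (GRCm38). MERKO and control were compared with edgeR 4.0.16 (quasi-likelihood test, filterByExpr, TMM, R 4.3.3) on genotype alone over 13628 genes, with Benjamini-Hochberg adjustment at 0.05. CPM values use TMM-scaled library sizes, and levels per kilobase use the longest principal coding transcript. Alternatives were DESeq2 1.42.0, limma-voom (limma 3.58.1), other scalings and filters, a replicate block, a robust prior and leaving out libraries. In simulated data for this comparison (13423 genes tested) the test recovered 10.1% of genes changed 1.5-fold, 57.6% at 2-fold and 84.8% at 4-fold, with 9.3% false calls. Those counts were drawn independently per gene around a common profile, without shifts shared by many genes of a library. The simulated shares may therefore overstate recovery in the real libraries. Any 2 libraries of a group differed beyond sampling noise (lowest chi-square per degree of freedom, 122.1). Across the groups this value ranged from 28.54 (MERKO 2 and control 2) to 1209 (MERKO 2 and control 3). By this value some pairs across the groups were closer than any pair within a group. The closest pair was also alike in its rRNA share, at 32.4% for MERKO 2 and 27.7% for control 2. Control 3, in the farthest pair, had 0.0434%. The part of rRNA in these values, within or across groups, was not tested. Library totals set the depth, and reads carry no molecular identifiers and so are not independent molecules. Members and lists were chosen with earlier results of these data known. Values per library are given for the 4 most abundant (per kilobase) and 3 lowest-p genes of each class and for Col22a1, Col13a1 and Col24a1, with Col11a2, Col27a1 and Col28a1 added after their values were seen. Of each companion list the 2 tested genes with the lowest p are named, and others, such as Car3, Itgb1 and the Timp genes, after their values were seen. No set test was run.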

Additional observations from a re-analysis of the deposited data

How the results depend on the processing

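The edgeR test called 1 of all genes and 0 collagen genes. The counts were 28 and 2 with DESeq2, 93 and 3 without a composition factor (Col11a1, Col12a1 and Col8a2), 140 and 6 without a filter (those 3, Col24a1, Col15a1 and Col22a1), 51 and 1 with the replicate number as a block (Col22a1), 7 and 0 without MERKO 1 and control 1, and from 0 to 11 and from 0 to 1 without any single library. At an unadjusted p under 0.05 the 11 collagen genes became 7 without a composition factor, 7 without MERKO 1 and control 1, and 7 to 12 without any single library. The count lower in MERKO, 8, was 13 without a composition factor and 5 to 10 without any single library. The median log2 fold change of the fibrillar class, 0.65, was 0.31 without MERKO 1 and control 1 and 0.38 to 0.85 without any single library. Over all settings the median lay between -0.115 (limma-voom) and 0.117 (without MERKO 1) for the basement membrane class, between 0.327 and 0.642 for FACIT, between 0.797 and 1.247 for the junctional class, and between 0.0574 (without a composition factor) and 0.263 for the others, whose value was 0.181. Esr1 lay between -2.08 and -1.84 without any single library. Among genes named for their level or p, signs reversed for Col4a2 (-0.00314 with limma-voom, -0.098 without a composition factor, -0.0396 to 0.0548 without any single library), for Col6a6 (-0.30 to 0.14) and Col3a1 (-0.23 to 0.0721) without any single library, and for Col5a2 (-0.0559), Col14a1 (-0.104) and Col6a1 (-0.00388) without MERKO 1 and control 1. Other collagen genes whose sign reversed without a single library were Col4a4 (-0.32 to 0.47), Col4a5 (-0.43 to 0.05), Col4a6 (-0.42 to 0.31), Col5a3 (-0.17 to 0.15), Col9a1 (-0.35 to 0.29), Col17a1 (-0.42 to 0.42) and Col23a1 (-0.19 to 0.29). Same-numbered libraries had deviations correlated at 0.448, 0.163 and 0.061, and not every library correlated best with its own number. These values do not settle whether replicate numbers pair the libraries. The cause of these shifts was not tested.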
